A study of Mus musculus with 10 samples.

Results

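The eukaryotic translation initiation factors are the proteins that bring the initiator tRNA, the small ribosomal subunit and the mRNA together and choose the start codon. They were taken here as the protein-coding genes whose mouse symbol begins with Eif and a digit of 1 to 6, without the Eif2ak kinases, which share the prefix but phosphorylate eIF2. This gave 51 genes, of 21647 protein-coding genes and 45321 genes in the files. Their counts made up 1.43% to 1.8% of a library. Of the 51 genes, 49 passed the filter on low counts and were tested. The other 2 were Eif2s3y, the Y-linked copy of the eIF2 gamma subunit, with 25 counts in all 10 libraries together, and Eif4e1b, a cap-binding relative known from oocytes, with 29. All 25 counts of Eif2s3y lay on retained-intron transcripts.

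In outline, eIF2 carries the initiator tRNA as a complex with GTP, and eIF2B recharges eIF2 with GTP after each round. The large complex eIF3 holds the small subunit and helps to recruit the mRNA, while eIF1 and eIF1A govern scanning for the start codon. eIF4F reads the cap: eIF4E binds it, eIF4A unwinds the leader and eIF4G is the scaffold, and the 4E-binding proteins compete with eIF4G for eIF4E. A resting naive T cell is small and makes little protein, and activation is known to raise its protein synthesis.

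RNA was sequenced from naive CD4 T cells of C57BL/6 mice, sorted from spleen by CD4 and CD62L and by the absence of CD69, a surface protein that appears early on activation. The cells received 12.5 µM Compound 10 or its solvent DMSO (vehicle) for 1 h, and then either PMA (10 nM) together with ionomycin (1 µM) for 2 h or no stimulus. PMA switches on protein kinase C, and ionomycin carries calcium into the cell, a combination that acts downstream of the T cell receptor. The series' design text presents the compound as an inhibitor of the transcription factor pair NFAT and AP-1, and 1 dose and 1 time were tested. The groups were stimulated cells with Compound 10 (n = 3), stimulated cells with vehicle (n = 2), unstimulated cells with Compound 10 (n = 2) and unstimulated cells with vehicle (n = 3). Nothing in the labels ties the replicates to different mice. The p-values therefore reflect the scatter of these 10 libraries alone, and that scatter may be technical.

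The libraries held 10694591 to 33486259 estimated counts. Levels below are CPM (counts scaled to library size) after TMM scaling, and group means are given ± SD; TPM (transcript abundance scaled to length and library size) is used wherever genes are compared with each other. A gene is called at an adjusted p under 0.05 (edgeR's quasi-likelihood F test, Benjamini-Hochberg adjustment over 14417 genes), and "rose", "fell", "higher" and "lower" are used of called genes. All 12 T cell identity markers were detected, at a summed 3430 to 4690 CPM, against 4.06 to 12.8 CPM for 7 B cell, 1.99 to 8.59 for 2 CD8, 15.7 to 43.2 for 8 myeloid and 2.56 to 8.7 for 6 NK markers. Of these, Fcgr1 (myeloid) and Ncr1 (NK) were at 0 in every library. The 8 memory or effector markers summed to 89.6 to 113 CPM in stimulated cells with Compound 10 and 163 to 180 in stimulated cells with vehicle, and to 113 to 128 CPM in unstimulated cells with Compound 10 and 56.3 to 83.1 in unstimulated cells with vehicle. The 5 regulatory T cell markers summed to 64.5 to 100 CPM in stimulated cells with Compound 10 and 147 to 195 in stimulated cells with vehicle, and to 82.7 to 88.5 CPM in unstimulated cells with Compound 10 and 68.2 to 81.4 in unstimulated cells with vehicle. The part of these markers in the results was not tested. The deposited data carry a number for each library: 13, 15 and 16, then 19 to 22, then 25, 26 and 29. These were cut here into 3 index runs at gaps, and no label names the runs as batches. A gap of equal width lies between 26 and 29, so placing stimulated Compound 10 replicate 3 (29) in the last run was a choice. The last run holds 1 stimulated and 1 unstimulated Compound 10 library and 1 unstimulated vehicle library. Its 2 unstimulated libraries are the deepest of the 10 and stand apart from the other resting libraries, so results are also given within runs and without the third run. In a bulk sample, fewer cells of a type and less RNA per cell cannot be told apart.

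In stimulated cells, every complex held initiation factor genes whose transcripts were lower with Compound 10 than with vehicle, beside others that were not called. Of the 49 genes tested, 23 were lower with Compound 10 than with vehicle and 1, Eif2d, was higher. That is 49% of the members, while 23.2% of all genes tested were called in this comparison, 12.8% as lower and 10.4% as higher. Leaving out stimulated vehicle replicate 2 gave 14 calls, 13 of them among these 24, in a fit that called 11.2% of all genes. The members' median log2 fold change was -0.42, against 0.04 for all genes. In 29 members every library with Compound 10 lay below every library with vehicle, and in 5 every one lay above, whereas 27.3% of all genes did so in each direction. The lower genes made up 2 of 3 tested in eIF2, 3 of 5 in eIF2B, 6 of 14 in eIF3, 2 of 5 in the eIF4F core, 3 of 7 among the eIF4 partners, 1 of 3 4E-binding repressors, 5 of 10 scanning, start codon and joining factors, and 1 of 2 eIF5A genes. The plot of log2 fold changes by complex shows the spread within each.

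**Figure D1:**
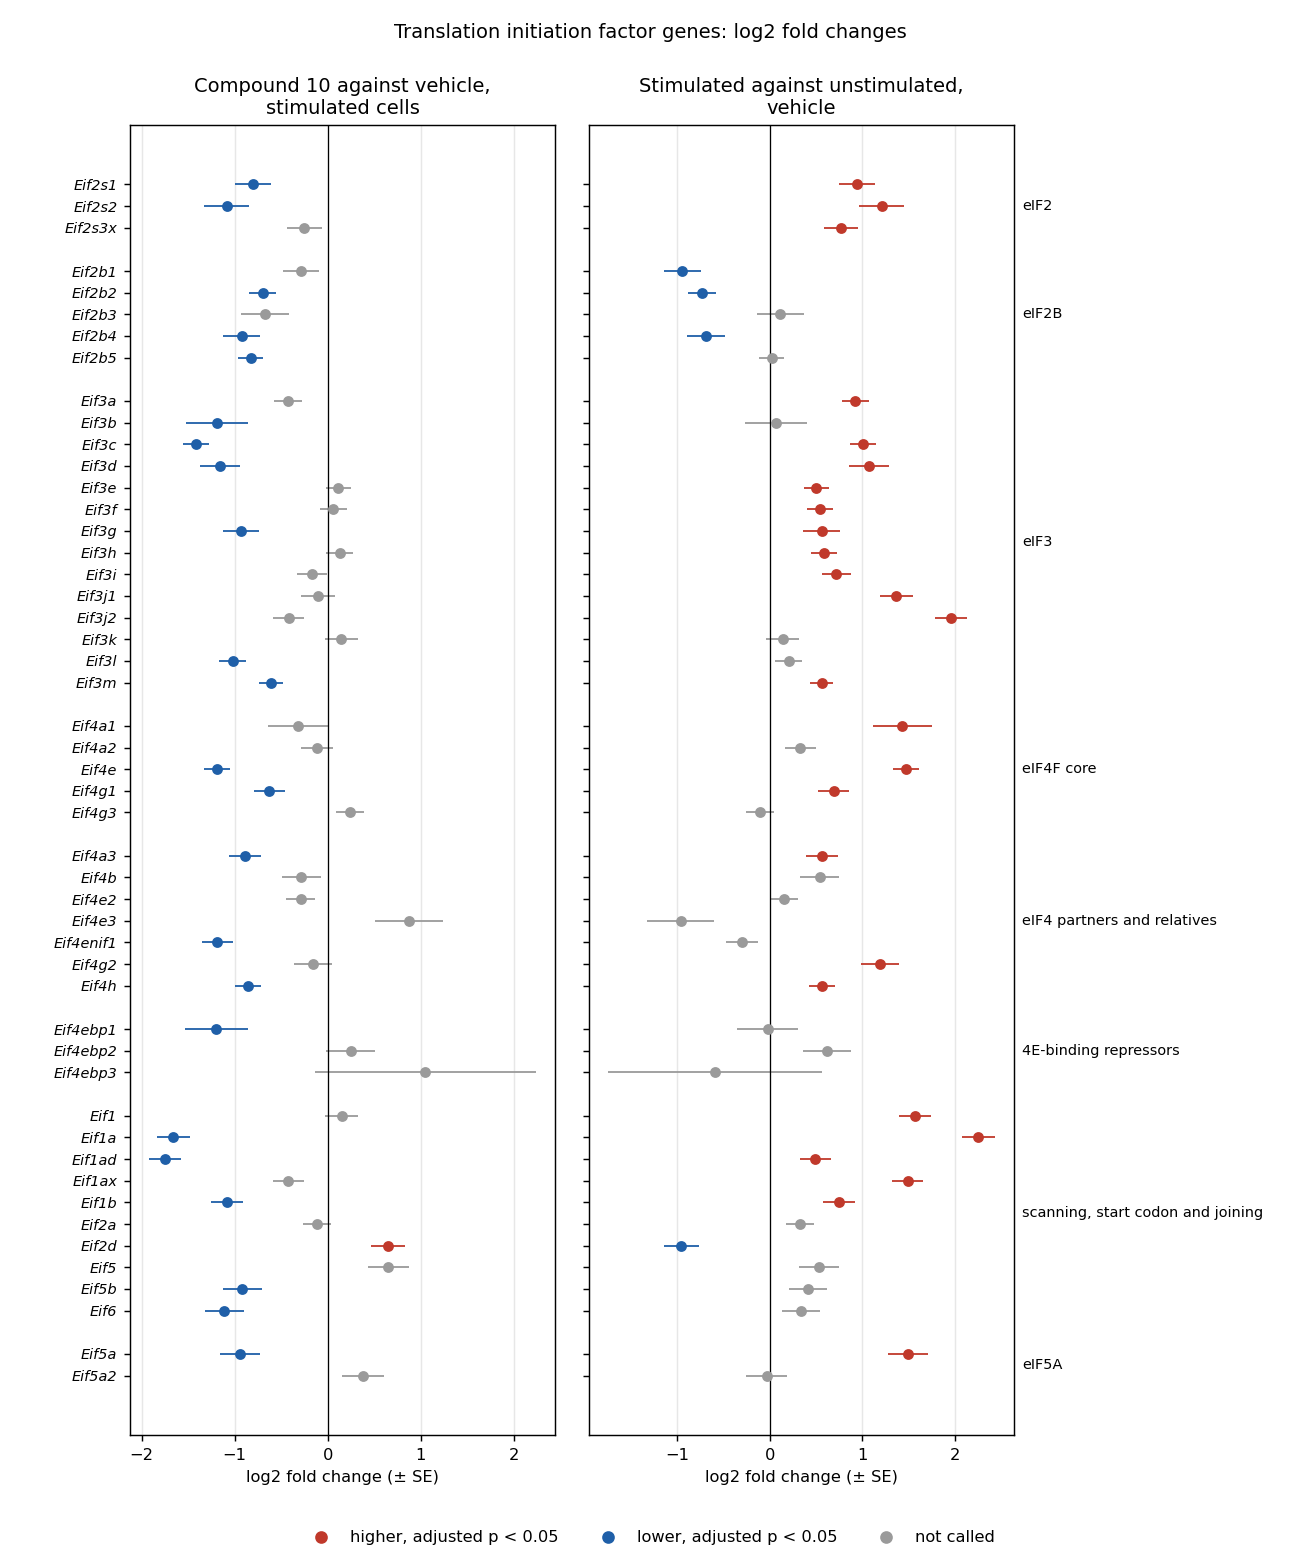
Log2 fold change ± SE (approximate, from edgeR's F statistic) of each of the 49 tested genes, grouped by complex. The left panel is Compound 10 against vehicle in stimulated cells, and the right is stimulated against unstimulated cells under vehicle (TMM scale). Blue and red points passed an adjusted p of 0.05 as lower and higher and grey points did not; the left panel holds 23 blue points and 1 red one.

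The factors that set up the scanning ribosome held the 2 largest differences. Eif1a encodes an eIF1A protein, which with eIF1 keeps the scanning ribosome open. It stood at 76.4, 104 and 91.2 CPM in stimulated cells with Compound 10, against 279.6 and 292 CPM in stimulated cells with vehicle, and at 47.9 and 64.1 CPM in unstimulated cells with Compound 10, against 56.3, 56.6 and 66.6 CPM in unstimulated cells with vehicle. The 2 stimulated vehicle libraries were thus far above the other 8. On the TMM scale the stimulated Compound 10 libraries lay only somewhat above the resting range. Their rise over unstimulated cells with Compound 10 fell to log2 0.11 in the lowest of 22 alternatives. Eif1a was 3.16-fold lower with Compound 10 in stimulated cells (log2 fold change -1.66 ± 0.18 SE, adjusted p = 0.000124).

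Eif1ad, which encodes an eIF1A domain protein, had a different shape. It was at 37.9, 45.5 and 55.99 CPM in stimulated cells with Compound 10 and at 154 and 158 CPM in stimulated cells with vehicle, against 81.6 and 88.4 CPM in unstimulated cells with Compound 10 and 104, 107 and 121 CPM in unstimulated cells with vehicle. Here the stimulated Compound 10 libraries were the lowest of all 10, below every resting library. The difference in stimulated cells was 3.35-fold (log2 -1.75 ± 0.17 SE, adjusted p = 8.78e-05), and 16.3% of its 31-base words occur in transcripts of another gene, chiefly its neighbour Banf1.

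Eif1b, a close relative of eIF1, and Eif6, which keeps the large ribosomal subunit from joining too early, followed. Eif1b was at 23.6, 20.8 and 26.6 CPM in stimulated cells with Compound 10 and 53.2 and 47.1 CPM in stimulated cells with vehicle (log2 -1.08 ± 0.17 SE, adjusted p = 0.00119). Eif6 was at 96.6, 101 and 147 CPM with Compound 10 and 242 and 254 CPM with vehicle (log2 -1.11 ± 0.20 SE, adjusted p = 0.00261). Neither pair of groups overlapped. Eif5b, the GTPase that joins the subunits, was also lower (log2 -0.92 ± 0.20 SE, adjusted p = 0.00761). Between 60.1% and 77.3% of its counts fell on retained-intron transcripts, and on protein-coding transcripts alone its difference was -0.94 with an adjusted p of 0.0526.

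The main eIF1 gene did not follow its relatives. Eif1 was at 3428, 2755 and 3740 CPM in stimulated cells with Compound 10 and 2961 and 2993 CPM in stimulated cells with vehicle, so the groups overlapped (log2 0.15 ± 0.18 SE, adjusted p = 0.599). Eif1ax, the X-linked eIF1A gene, was at 112, 115 and 132 CPM with Compound 10 and 166 and 154 CPM with vehicle, which did not overlap but missed the threshold (log2 -0.42 ± 0.17 SE, adjusted p = 0.0903). Eif5, the GTPase-activating protein of eIF2, had a positive value that missed the threshold, at 3265, 2964 and 3344 CPM with Compound 10 and 1891 and 2172 CPM with vehicle (log2 0.65 ± 0.22 SE, adjusted p = 0.0543). In TPM, Eif1 (5469 ± 494 with Compound 10 and 4837 ± 408 with vehicle, SD, n = 3 and 2) and Eif5 (1477 ± 56.3 and 891 ± 116) were the most abundant of the 10 genes, and the summed level of this group was not lower. It was 7062 ± 731 CPM in stimulated cells with Compound 10 and 6151 ± 232 CPM in stimulated cells with vehicle, with overlapping libraries, and 7321 ± 583 TPM and 6473 ± 542 TPM, without overlap.

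Eif2d was the sole member called higher. It encodes a factor that can deliver tRNA to the small subunit without eIF2. It stood at 17.1, 22.3 and 20.2 CPM in stimulated cells with Compound 10 and 12.1 and 13.2 CPM in stimulated cells with vehicle, against 20.3 and 18.03 CPM in unstimulated cells with Compound 10 and 24.4, 25.3 and 24.1 CPM in unstimulated cells with vehicle. The 2 stimulated vehicle libraries were the lowest of the 10. The difference in stimulated cells was 1.57-fold (log2 0.65 ± 0.19 SE, adjusted p = 0.0265), and 8 of 22 alternative analyses lost the call, 4 of them by leaving out 1 library (DMSO replicate 1 or 2, or Compound 10 replicate 2 or 3, all stimulated), with adjusted p between 0.0521 and 0.184. The fit on protein-coding transcripts alone was among the others that lost it. Transcripts annotated for nonsense-mediated decay took 8.93% to 40.2% of the Eif2d counts in a library. Eif2a, an initiator tRNA-binding protein distinct from eIF2, did not differ beyond its spread (log2 -0.12 ± 0.15 SE, adjusted p = 0.63). Protein-coding transcripts took only 3.09% to 31.5% of the Eif2a counts in a library, and retained-intron transcripts 50.3% to 73%.

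**Figure D2:**
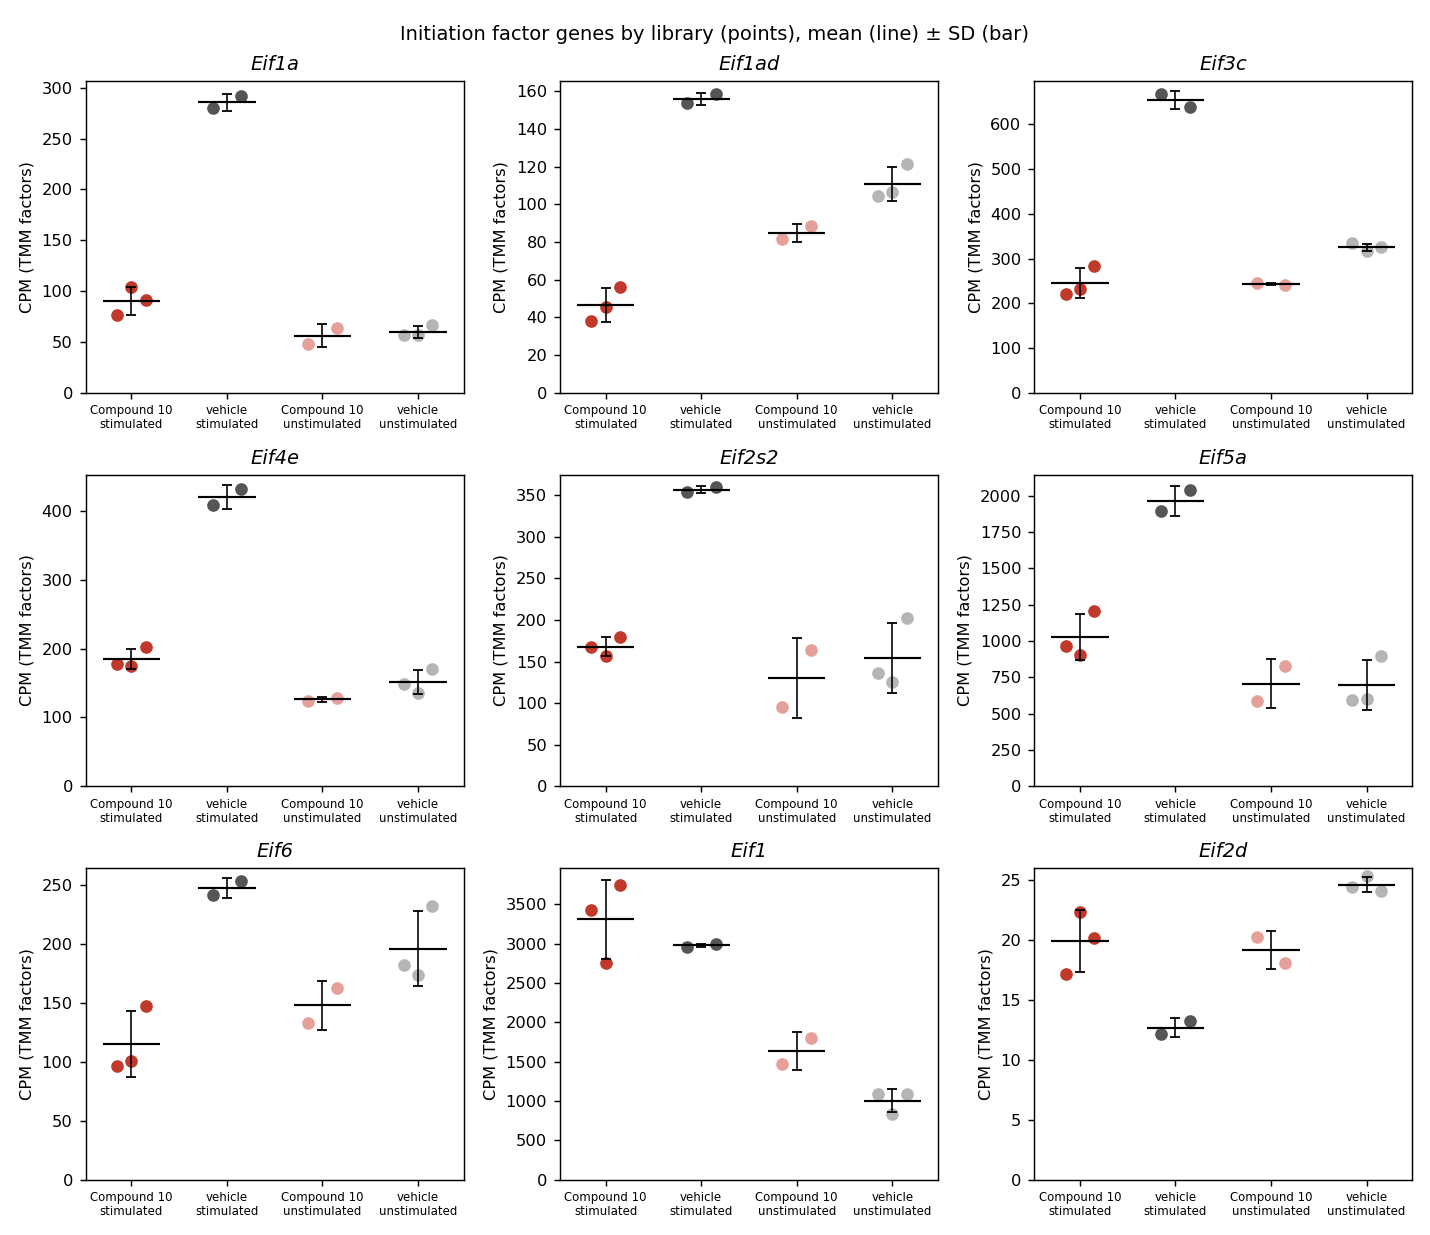
CPM with TMM factors of 9 initiation factor genes in each library (points), with the mean (line) and SD (bar) of each group; groups run from stimulated cells with Compound 10 on the left to unstimulated cells with vehicle on the right. For Eif1a the 2 stimulated vehicle libraries, at 279.6 and 292, are far above the rest, and for Eif1ad the stimulated Compound 10 libraries are the lowest of all. Eif1 overlaps between the stimulated groups, and Eif2d runs against most members.

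The subunits of eIF3 split. In stimulated cells Eif3b, Eif3c, Eif3d, Eif3g, Eif3l and Eif3m were lower with Compound 10, by log2 fold changes from -0.61 to -1.42. Eif3e, Eif3f, Eif3h and Eif3k had values just above 0 (0.06 to 0.15), and Eif3i (-0.17) and Eif3j1 (-0.11) just below, none called. Eif3a and Eif3j2 lay between, at -0.42 each, also uncalled (adjusted p = 0.0635 and 0.0979).

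Eif3c, which encodes a subunit of the complex's core, changed most. It was at 220, 232 and 284 CPM in stimulated cells with Compound 10 and 668 and 640.1 CPM in stimulated cells with vehicle, against 245 and 242 CPM in unstimulated cells with Compound 10 and 334, 317 and 325 CPM in unstimulated cells with vehicle. On the TMM scale the stimulated libraries with vehicle lay far above the resting ones, while with Compound 10 the stimulated and resting libraries overlapped. The rise under vehicle ranged from 0.23 to 1.08 on the log2 scale over 22 alternatives, and 3 of them lost the call. The difference in stimulated cells was 2.67-fold (log2 -1.42 ± 0.14 SE, adjusted p = 8.78e-05). It lies at chr7:126546455-126566411 (mm10).

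Eif3d encodes a peripheral subunit that can itself bind the cap of some mRNAs. It was at 134, 141 and 156 CPM in stimulated cells with Compound 10 and 336 and 306 CPM in stimulated cells with vehicle (log2 -1.16 ± 0.21 SE, adjusted p = 0.00273), and 25.8% of its 31-base words are shared, nearly all with the gene model Gm17638. Eif3g, an RNA-binding subunit, was at 121, 125 and 166 CPM with Compound 10 and 248 and 277 CPM with vehicle (log2 -0.93 ± 0.20 SE, adjusted p = 0.00536). Eif3l, a core subunit, was at 81.5, 79.1 and 87.7 CPM with Compound 10 and 169 and 166 CPM with vehicle (log2 -1.02 ± 0.15 SE, adjusted p = 0.000593). In all 3 genes the groups were well apart, and Eif3l was the tightest of them. Eif3b, the scaffold for the peripheral subunits, differed by -1.19 ± 0.33 SE on the log2 scale (adjusted p = 0.0228) with the widest spread of the set. Its values were 111, 78 and 126 CPM with Compound 10 and 202 and 277 CPM with vehicle, and in unstimulated cells they were 96.3 and 195 CPM with Compound 10 and 149.6, 290.3 and 245 CPM with vehicle. Leaving out either stimulated vehicle library, or stimulated Compound 10 replicate 1 or 2, ended the call of Eif3b (adjusted p = 0.0549, 0.185, 0.0572 and 0.0834).

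The resting cells share no library with the stimulated ones. In them the 6 subunits that were lower with Compound 10 in stimulated cells all had negative values for Compound 10 against vehicle (-0.36 to -0.65), of which Eif3l alone was called. Eif3e, Eif3f, Eif3h, Eif3k, Eif3j1 and Eif3j2 had positive ones (0.15 to 0.31), none called. Across the 14 eIF3 genes, the log2 fold changes in the 2 states had a Pearson r of 0.90 and a Spearman rho of 0.82, across the 49 members 0.71 and 0.70, and across all 14417 genes 0.27 and 0.33. The share of genes with the same sign in both states was close between members and all genes, at 65.3% and 62.5%. These correlations are across genes, which are not independent replicates, and Eif3j1 and Eif3j2 share sequence. The sets of genes were not matched for expression level, and the part of this in the correlations was not tested. The summed eIF3 level was 2768 ± 139 CPM in stimulated cells with Compound 10 and 3892 ± 39.9 CPM in stimulated cells with vehicle, a ratio of 0.711. In TPM, where genes can be compared, Eif3f, Eif3k and Eif3h were the highest subunits in stimulated cells with Compound 10 (343 ± 14.1, 321 ± 30.4 and 312 ± 10.9) and Eif3l and Eif3b were at 50.5 ± 1.74 and 51 ± 6.56.

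Eif3j1 and Eif3j2, the 2 genes of the loosely bound j subunit, are nearly the same in sequence: 94.9% of the 31-base words of Eif3j2 occur in transcripts of another gene, chiefly Eif3j1, so the split of reads between them is uncertain. Summed, they were at 354, 279.5 and 300 CPM in stimulated cells with Compound 10 and 417 and 386 CPM in stimulated cells with vehicle, against 118 and 156 CPM in unstimulated cells with Compound 10 and 120, 102 and 111 CPM in unstimulated cells with vehicle. The sum was higher in every stimulated library than in every resting one, with either treatment. Of the other subunits, 38.7% of the words of Eif3e and 28.7% of those of Eif3m are shared, mostly with pseudogenes or unnamed gene models.

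For eIF2, the alpha and beta subunits fell with Compound 10 in stimulated cells. Eif2s2 (beta) was at 168, 157 and 180 CPM with Compound 10 and 354 and 360 CPM with vehicle (log2 -1.09 ± 0.24 SE, adjusted p = 0.00708). Eif2s1 (alpha, the subunit that stress kinases phosphorylate) was at 206, 204 and 245 CPM with Compound 10 and 367 and 393 CPM with vehicle (log2 -0.80 ± 0.19 SE, adjusted p = 0.0109). Eif2s3x (gamma, which binds GTP and the tRNA) was at 194, 168 and 131 CPM with Compound 10 and 199.6 and 190.1 CPM with vehicle, which overlapped (log2 -0.25 ± 0.19 SE, adjusted p = 0.387). So the gamma gene was not called with the other two, and 35.5% of its 31-base words are shared, almost all with the gene model Gm2223. Leaving out either stimulated vehicle library ended the calls of Eif2s1 (adjusted p = 0.06 and 0.092) and Eif2s2 (adjusted p = 0.0502 and 0.0539).

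No eIF2B gene was called higher on stimulation, and most were lower with Compound 10 as well. In stimulated cells Eif2b5, the catalytic epsilon subunit, was at 53.2, 59.7 and 61.1 CPM with Compound 10 and 103 and 103 CPM with vehicle (log2 -0.83 ± 0.14 SE, adjusted p = 0.00134). Eif2b2 (beta) was at 37.6, 34.4 and 35.8 CPM with Compound 10 and 56.01 and 60.4 CPM with vehicle (log2 -0.70 ± 0.15 SE, adjusted p = 0.00554). Eif2b4 (delta) was at 25.7, 22.9 and 34.3 CPM with Compound 10 and 47.8 and 57 CPM with vehicle (log2 -0.92 ± 0.20 SE, adjusted p = 0.00676). None of the 3 pairs of groups overlapped. Eif2b1 (alpha) and Eif2b3 (gamma) were not called (log2 -0.29 ± 0.20 and -0.67 ± 0.26 SE, adjusted p = 0.335 and 0.0821).

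Against unstimulated cells with vehicle, stimulated cells with vehicle had less Eif2b1 (28.8 and 33.3 CPM, against 56.4, 51.6 and 71.6), less Eif2b2 (56.01 and 60.4 CPM, against 101.7, 87.2 and 101.5) and less Eif2b4 (47.8 and 57 CPM, against 85.2, 73.3 and 95.1). Their log2 fold changes were -0.94 ± 0.20, -0.73 ± 0.15 and -0.69 ± 0.21 SE (adjusted p = 0.00292, 0.00243 and 0.0196), and Eif2b5 did not differ beyond its spread (0.02 ± 0.14 SE, adjusted p = 0.916). Leaving out stimulated vehicle replicate 1 or 2 ended the call of Eif2b4 (adjusted p = 0.167 and 0.0518). The summed eIF2B level was lowest in stimulated cells with Compound 10, at 152 ± 11 CPM, followed by 253 ± 12.7 CPM in stimulated cells with vehicle, 287 ± 21.1 CPM in unstimulated cells with Compound 10 and 350 ± 31.6 CPM in unstimulated cells with vehicle, with no overlap between any 2 neighbours in that order. The order was the same in TPM, at 117 ± 11.6, 181 ± 28.4, 326 ± 16 and 438 ± 23.7.

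**Figure D3:**
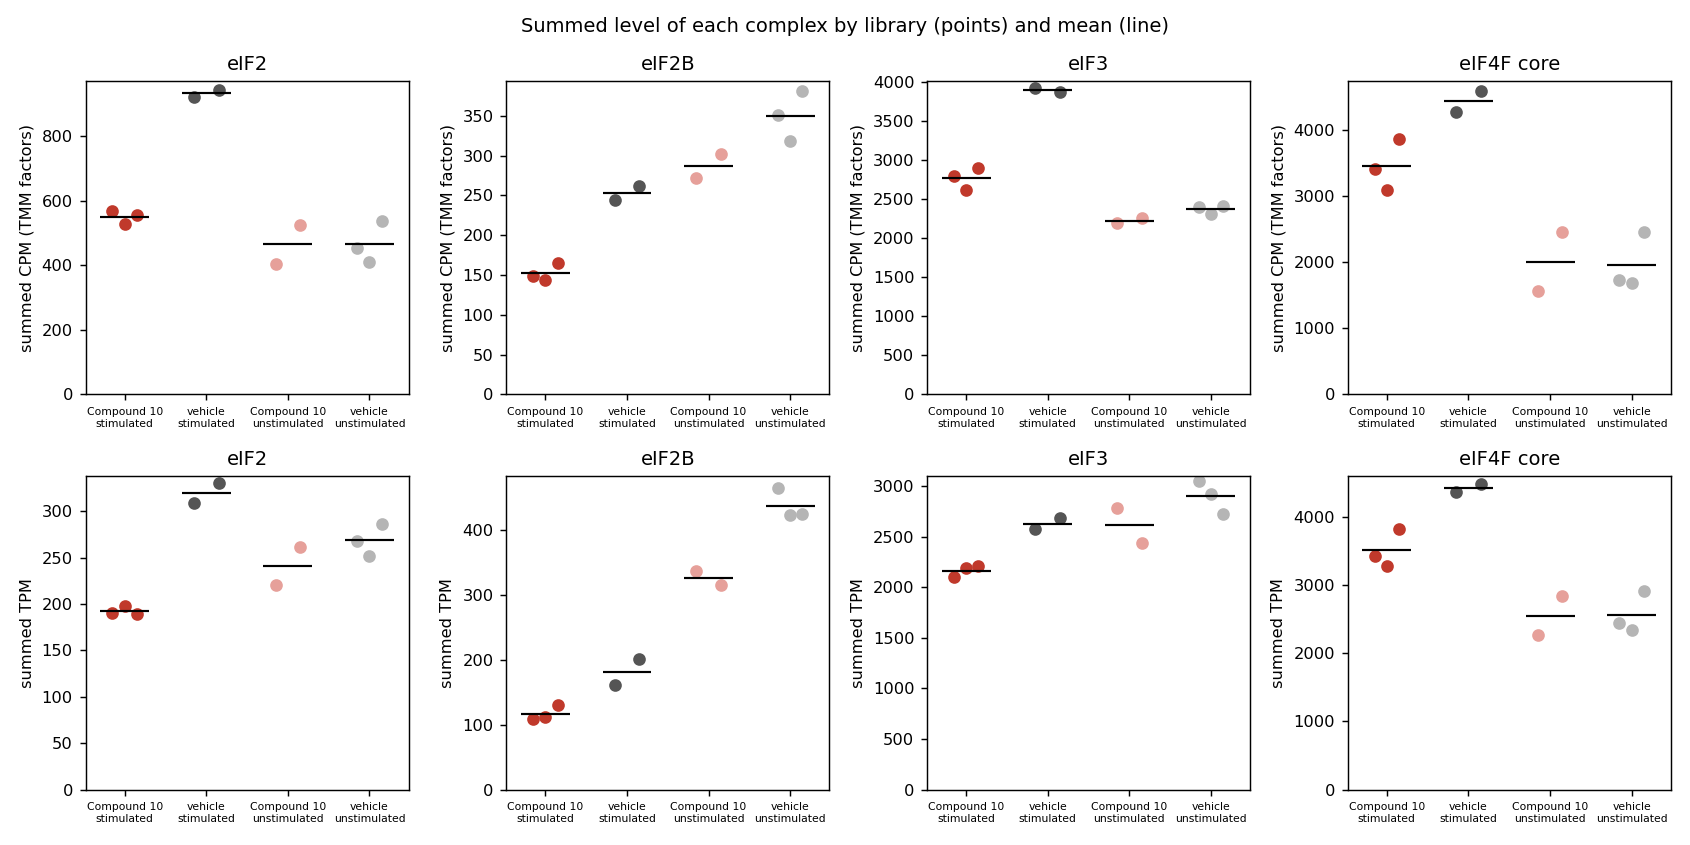
Summed level of the genes of eIF2, eIF2B, eIF3 and the eIF4F core in each library (points) with the group mean (line), as CPM with TMM factors (top) and as deposited TPM (bottom). On both scales stimulated cells with Compound 10 lie below stimulated cells with vehicle, while the place of stimulated against unstimulated cells depends on the scale for eIF3, and for eIF2 with Compound 10.

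In the eIF4F core, the cap-binding protein gene fell most. Eif4e was at 178, 175 and 202 CPM in stimulated cells with Compound 10 and 409 and 433 CPM in stimulated cells with vehicle, against 124 and 129 CPM in unstimulated cells with Compound 10 and 149, 136 and 170 CPM in unstimulated cells with vehicle. Its difference in stimulated cells was 2.28-fold (log2 -1.19 ± 0.14 SE, adjusted p = 0.000212), with no overlap. Eif4e lies at chr3:138526179-138559696 (mm10). The scaffold gene Eif4g1 was at 165, 157 and 139 CPM with Compound 10 and 248 and 228 CPM with vehicle (log2 -0.63 ± 0.17 SE, adjusted p = 0.0194), a call that 7 of 22 alternatives lost, among them those that left out stimulated vehicle replicate 1 or 2 (adjusted p = 0.151 and 0.0816) or stimulated Compound 10 replicate 3 (adjusted p = 0.058).

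The other scaffold gene, Eif4g3, was at 95.4, 85.8 and 92.7 CPM with Compound 10 and 70.2 and 84 CPM with vehicle, with no overlap and a positive sign, uncalled (log2 0.24 ± 0.15 SE, adjusted p = 0.278). The helicase Eif4a1 was at 2441, 2240 and 3046 CPM with Compound 10 and 3059 and 3352 CPM with vehicle, without overlap but uncalled (log2 -0.32 ± 0.32 SE, adjusted p = 0.537), and its sister Eif4a2 overlapped (log2 -0.11 ± 0.17 SE, adjusted p = 0.681). Eif4a1 made up most of the core in TPM (2904 ± 311 with Compound 10 and 3547 ± 6.17 with vehicle), against 229.5 ± 23.05 and 479 ± 58.5 TPM for Eif4e. The summed core was at 3458 ± 388 CPM with Compound 10 and 4431 ± 219 CPM with vehicle, a ratio of 0.78. Of the words of Eif4a1, 31.1% are shared, mostly with the pseudogene Eif4a-ps4.

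Eif4a1 was also uneven among resting libraries, at 887 and 1788 CPM with Compound 10 and 897, 915 and 1743 CPM with vehicle. The 2 high libraries are those of the third index run. Retained-intron transcripts took 10.2% and 13.5% of the Eif4a1 counts in these 2 and 20.3% to 23.9% in the other 8. The part of the index run in these values was not tested.

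Among the partners, the genes for Eif4h, which aids the helicase, Eif4a3, a helicase of the exon junction complex, and Eif4enif1, which carries eIF4E into the nucleus and represses it, fell with Compound 10 in stimulated cells. Eif4h was at 227, 221 and 255 CPM with Compound 10 and 453 and 396 CPM with vehicle (log2 -0.86 ± 0.14 SE, adjusted p = 0.00146). Eif4a3 was at 130, 146 and 178 CPM with Compound 10 and 294 and 268 CPM with vehicle (log2 -0.89 ± 0.17 SE, adjusted p = 0.00351), and 29.9% of its words are shared with gene models of similar sequence. Eif4enif1 was at 19.7, 15.6 and 18.6 CPM with Compound 10 and 41.7 and 39.99 CPM with vehicle, against 30.8 and 30.9 CPM in unstimulated cells with Compound 10 and 51.7, 44.5 and 54.3 CPM in unstimulated cells with vehicle (log2 -1.19 ± 0.17 SE in stimulated cells, adjusted p = 0.00056). Compound 10 libraries lay below vehicle libraries in both states for Eif4enif1.

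Eif4g2, a scaffold that lacks the eIF4E-binding part, was one of the most abundant members and overlapped between stimulated groups, at 4264, 3769 and 2970 CPM with Compound 10 and 4194 and 3985 CPM with vehicle (log2 -0.16 ± 0.21 SE, adjusted p = 0.643). Eif4b, another helper of the helicase, did likewise (log2 -0.28 ± 0.21 SE, adjusted p = 0.378). The cap-binding relative Eif4e2 did not overlap but was not called (log2 -0.29 ± 0.15 SE, adjusted p = 0.2). Eif4e3, a low member, was at 8.62, 10.8 and 13.6 CPM with Compound 10 and 3.35 and 8.48 CPM with vehicle, without overlap and uncalled (log2 0.87 ± 0.36 SE, adjusted p = 0.11).

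The repressors of eIF4E were scarce. Eif4ebp1 was at 2.43, 2.91 and 3.98 CPM in stimulated cells with Compound 10 and 9.53 and 4.93 CPM in stimulated cells with vehicle (log2 -1.20 ± 0.34 SE, adjusted p = 0.0249). Leaving out stimulated vehicle replicate 1 brought it to -0.66 (adjusted p = 0.321), and leaving out stimulated Compound 10 replicate 1 or 2 ended the call (adjusted p = 0.0802 and 0.0717). Eif4ebp2 overlapped between the stimulated groups (log2 0.25 ± 0.27 SE, adjusted p = 0.562) and Eif4ebp3, at 1.77 CPM or less in every library, gave no usable difference (log2 1.05 ± 1.19 SE, adjusted p = 0.584). Against unstimulated cells with Compound 10, stimulated cells with Compound 10 had less Eif4ebp1 (log2 -1.17 ± 0.33 SE, adjusted p = 0.0222) and more Eif4ebp2 (log2 0.96 ± 0.27 SE, adjusted p = 0.0214). Leaving out any 1 of unstimulated Compound 10 replicates 1 and 2 or stimulated Compound 10 replicates 1 and 2 ended the first call (adjusted p = 0.0578 to 0.0791), and leaving out unstimulated Compound 10 replicate 2 or stimulated Compound 10 replicate 1 ended the second (adjusted p = 0.217 and 0.0757).

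Eif5a, whose protein carries the modified lysine hypusine and helps both initiation and elongation, was at 968, 903 and 1207 CPM in stimulated cells with Compound 10 and 1894 and 2040 CPM in stimulated cells with vehicle, against 589 and 825 CPM in unstimulated cells with Compound 10 and 594, 602 and 897 CPM in unstimulated cells with vehicle. On the TMM scale the stimulated Compound 10 libraries lay between the resting and the stimulated vehicle ranges (log2 -0.94 ± 0.22 SE in stimulated cells, adjusted p = 0.0087). Its low relative Eif5a2 was at 16, 15.4 and 12.6 CPM with Compound 10 and 10.3 and 12.2 CPM with vehicle (log2 0.38 ± 0.22 SE, adjusted p = 0.257). Summed on library totals, Eif5a and Eif5a2 were at 769, 780 and 989 CPM in stimulated cells with Compound 10, within the resting values. Resting libraries were at 752 and 1004 CPM with Compound 10 and 774, 824 and 1142 CPM with vehicle, and stimulated vehicle ones at 1390 and 1598. The 2 enzymes that make hypusine, Dhps and Dohh, were lower with Compound 10 in stimulated cells as well (log2 -0.66 ± 0.21 and -1.05 ± 0.19 SE, adjusted p = 0.041 and 0.00259).

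Index runs 1 and 2 each hold 1 stimulated library of either treatment, so the same comparison can be read within a run, on libraries already used above. The log2 ratio of Compound 10 to vehicle was -1.87 in run 1 and -1.49 in run 2 for Eif1a, and -2.01 and -1.80 for Eif1ad. It was -1.60 and -1.46 for Eif3c, -1.20 and -1.31 for Eif4e and -1.08 and -1.20 for Eif2s2. For Eif5a it was -0.97 and -1.17, and for Eif2d 0.50 and 0.75. For these genes the stimulated groups do not overlap, so a like sign in both runs was fixed beforehand, and the within-run values show size only. Run 3 has no stimulated vehicle library. Leaving out stimulated vehicle replicate 2 ended 11 of the 24 calls and leaving out replicate 1 ended 7. Beside those named above, replicate 2 ended the calls of Eif2b2, Eif2b4, Eif3g, Eif3m, Eif5a and Eif5b (adjusted p = 0.069, 0.0865, 0.0615, 0.0589, 0.0725 and 0.0655), and replicate 1 that of Eif3m (adjusted p = 0.0561). Without run 3, 29 members were called, 27 as lower and 2 as higher, in a fit that called 32% of all genes.

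Stimulation itself, under vehicle, raised most of these genes on the TMM scale. Of the 49 members, 26 were higher and 4 lower in stimulated than in unstimulated cells with vehicle, 61.2% of them, while 39% of all genes were called, 19.5% as higher and 19.4% as lower. In 35 members every stimulated library lay above every unstimulated one and in 6 below, whereas 30.2% and 32.3% of all genes did so. The members' median log2 fold change was 0.55, against -0.06 for all genes. All 3 tested eIF2 genes rose, as did 11 of 14 eIF3 genes, 3 of 5 of the eIF4F core and 3 of 7 partners, whereas 3 of 5 eIF2B genes fell. Eif1a rose most (4.77-fold, log2 2.25 ± 0.18 SE, adjusted p = 2.74e-06), followed by Eif3j2 (log2 1.96 ± 0.17 SE, adjusted p = 5.61e-06), Eif1 (log2 1.57 ± 0.18 SE, adjusted p = 3.87e-05), Eif5a (log2 1.50 ± 0.22 SE, adjusted p = 0.000243), Eif1ax (log2 1.49 ± 0.16 SE, adjusted p = 3.7e-05) and Eif4e (log2 1.47 ± 0.14 SE, adjusted p = 1.37e-05). Eif4g2 was 2.28-fold higher (log2 1.19 ± 0.21 SE, adjusted p = 0.00079). Beside the 3 eIF2B genes, Eif2d was the fourth gene that fell (log2 -0.95 ± 0.19 SE, adjusted p = 0.00179).

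These directions depend on how the stimulated libraries are scaled. Stimulated libraries had TMM factors of 0.731 to 0.85 and unstimulated ones 1.2 to 1.34, while ribosomal RNA-like gene models took 4.94% to 10.7% of the counts under stimulation and 1.49% to 4.58% at rest. With library totals alone the median of all genes lay at -0.83 under vehicle and -0.60 with Compound 10. On that scale the members' median was -0.23 under vehicle and 22 members were called, 7 as higher and 15 as lower, while 54.2% of all genes were called, 1202 as higher and 6610 as lower. Eif1, Eif1a, Eif1ax, Eif3j1, Eif3j2, Eif4e and Eif5a were higher on both scales, and Eif2b1, Eif2b2, Eif2b4 and Eif2d were lower on both. The comparison of Compound 10 with vehicle within stimulated cells depended less on it: with library totals, where the median of all genes was 0.15, 24 members were called, 22 as lower and 2 as higher, 23 of them shared with the TMM calls.

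On the TMM scale, fewer members were called on stimulation with Compound 10 than under vehicle. Against unstimulated cells with Compound 10, stimulated cells with Compound 10 had 11 members higher and 7 lower, 36.7% of them, while 26.5% of all genes were called. The median was 0.14, against -0.01 for all genes. Eif3j2 (log2 1.23 ± 0.18 SE, adjusted p = 0.000525), Eif1 (log2 1.02 ± 0.18 SE, adjusted p = 0.00202) and Eif3j1 (log2 1.01 ± 0.19 SE, adjusted p = 0.00266) rose most. On library totals 21 members were called here, 1 as higher and 20 as lower, with a median of -0.45, while 41.8% of all genes were called, 810 as higher and 5219 as lower. On the TMM scale 4 genes of eIF2B fell, Eif2b1 most (log2 -1.29 ± 0.19 SE, adjusted p = 0.000581), together with Eif1ad, Eif4enif1 and Eif4ebp1. No eIF2 gene was called (median 0.27).

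The interaction asks directly whether the response to stimulation differed between Compound 10 and vehicle. It was below 0 for 41 of 49 members, while 50% of all genes were below 0, and the median was -0.47, against 0 for all genes. It was called for 5 members, or 10.2%, while 6.63% of all genes were called, 2.55% as higher and 4.08% as lower. The count was 10 with DESeq2 (11.6% of all genes called), 13 without the third index run (11.2%) and 17 with the index run as a block (15%). The difference was negative for Eif1a (-1.57 ± 0.25 SE, adjusted p = 0.00571), Eif1ad (-1.36 ± 0.24 SE, adjusted p = 0.00868), Eif3c (-1.0 ± 0.20 SE, adjusted p = 0.0154) and Eif4e (-0.92 ± 0.20 SE, adjusted p = 0.0229). For Eif2d it was positive (1.01 ± 0.26 SE, adjusted p = 0.0407). Eif2d fell on stimulation under vehicle and was not called on stimulation with Compound 10. On the TMM scale Eif3c rose on stimulation under vehicle (log2 1.01 ± 0.14 SE) and stood at 0.01 ± 0.14 SE with Compound 10. The first value fell to 0.23 in the lowest of 22 alternatives. Eif1ad had a positive response under vehicle (log2 0.49 ± 0.17 SE) and a negative one with Compound 10 (log2 -0.87 ± 0.17 SE), though the first turns to -0.28 with library totals and missed the threshold in 7 of the 10 analyses that left out 1 library (adjusted p = 0.0508 to 0.189). Leaving out either stimulated vehicle library left 1 called member, Eif1a. Leaving out unstimulated Compound 10 replicate 2 left 2, unstimulated vehicle replicate 2 or stimulated Compound 10 replicate 2 left 3, and leaving out unstimulated vehicle replicate 3 gave 10.

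**Figure D4:**
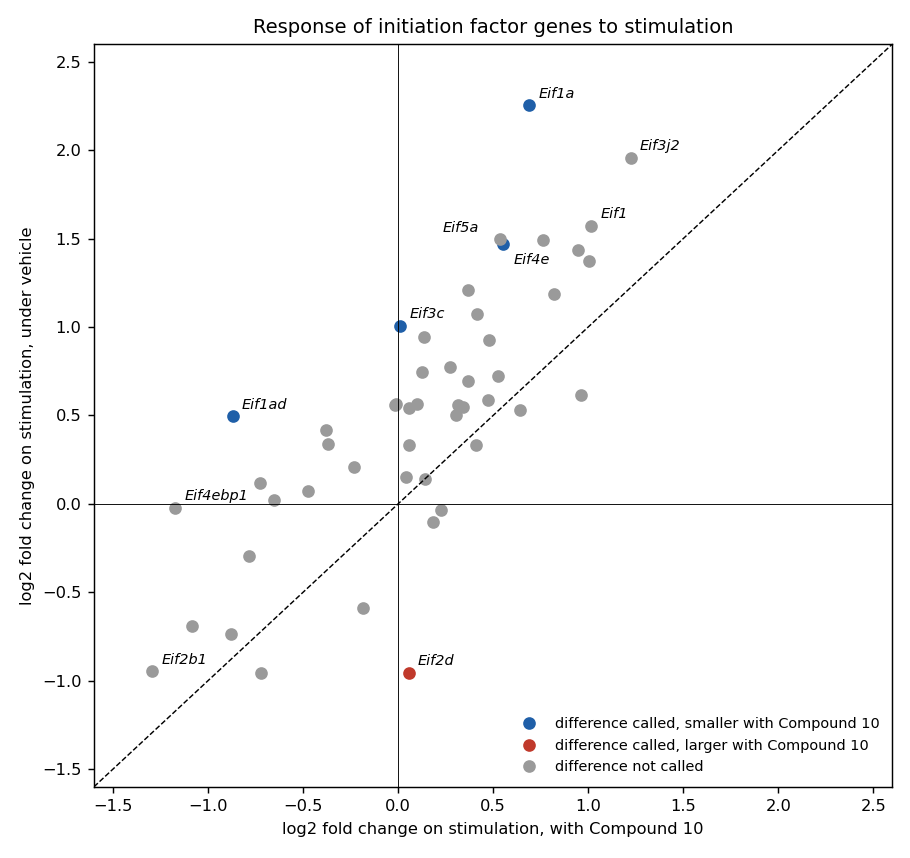
Log2 fold change on stimulation of the 49 tested members with Compound 10 (x axis) and under vehicle (y axis), both on the TMM scale; the dashed line marks equal responses and coloured points are the 5 whose difference passed an adjusted p of 0.05. Of the 49 points 41 lie above the line, where the response with Compound 10 is the lower one, and Eif2d is the coloured point below it. In the legend, smaller and larger refer to signed values.

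In unstimulated cells 4 members were called between Compound 10 and vehicle. Of 49, 1 was higher and 3 were lower, 8.16%, close to the 8.43% of all genes called (4.65% higher and 3.78% lower), and the median was -0.05, against 0 for all genes. With the index run as a block 10 members were called, 2 as higher and 8 as lower, and 16.7% of all genes. Eif1 was higher, at 1465 and 1804 CPM with Compound 10 and 1084, 829.8 and 1088 CPM with vehicle (log2 0.71 ± 0.18 SE, adjusted p = 0.0324). Lower were Eif4enif1 (log2 -0.70 ± 0.17 SE, adjusted p = 0.0298), Eif3l (log2 -0.58 ± 0.15 SE, adjusted p = 0.0368; 107 and 87.9 CPM with Compound 10 and 159, 145 and 133 CPM with vehicle) and Eif2b2 (log2 -0.55 ± 0.15 SE, adjusted p = 0.0425; 62.6 and 69.3 CPM with Compound 10 and 101.7, 87.2 and 101.5 CPM with vehicle). None of the 4 pairs overlapped. In all, 4 members had every Compound 10 library above every vehicle library and 16 had every one below, while 18.8% and 19.1% of all genes did so. Within index runs 2 and 3 the ratio was 0.82 and 0.73 for Eif1, -0.53 and -0.81 for Eif4enif1, -0.44 and -0.59 for Eif3l and -0.48 and -0.55 for Eif2b2. As the groups do not overlap for these genes, a like sign in both runs was fixed beforehand, and the values show size only.
None of these 4 calls remained when only the unstimulated groups were fitted, or when unstimulated vehicle replicate 1, unstimulated Compound 10 replicate 2, either stimulated vehicle library or the third index run was left out, and without unstimulated vehicle replicate 2 or stimulated Compound 10 replicate 1 only 1 call was made. Without stimulated Compound 10 replicate 2 there were 2 calls, and without unstimulated Compound 10 replicate 1 there were 3, of which 1 is among these 4.

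The other genes of the initiation pathway, 45 with 44 tested, moved less uniformly. Their calls in either state, those of Dhps and Dohh above among them, come from the main fit only. Whether they hold in the alternatives or with a library left out was not tested. In stimulated cells 4 were higher and 10 lower with Compound 10 than with vehicle, 31.8% of them, while 23.2% of all genes were called, and their median was -0.08, against 0.04 for all genes. Among other initiation factors and helicases 5 of 9 were lower, with Abce1, which recycles ribosomes (log2 -1.22 ± 0.15 SE, adjusted p = 0.00028), Denr, a partner in re-initiation (log2 -0.86 ± 0.15 SE, adjusted p = 0.00192), and Bzw1, an eIF5 mimic (log2 -0.83 ± 0.15 SE, adjusted p = 0.00224), at the smallest p. Of 16 cap and poly(A) partners and regulators 3 were higher, Mknk2, a kinase of eIF4E (log2 1.34 ± 0.29 SE, adjusted p = 0.00604), Paip2b, a repressor of the poly(A)-binding protein (log2 0.56 ± 0.14 SE, adjusted p = 0.0134), and its relative Paip2 (log2 0.57 ± 0.17 SE, adjusted p = 0.0293). Larp1, which binds mRNAs of the translation machinery, was lower (log2 -0.94 ± 0.30 SE, adjusted p = 0.044).

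Of the 8 genes of eIF2 kinases and their counterparts, 1 was called in stimulated cells, the endoplasmic reticulum kinase Eif2ak3 (log2 0.89 ± 0.21 SE, adjusted p = 0.0104). Of 7 elongation genes 1 was lower, Eef1e1, a component of the tRNA synthetase complex (log2 -1.30 ± 0.23 SE, adjusted p = 0.00226). The elongation factors proper, Eef1a1 (log2 -0.08 ± 0.26 SE, adjusted p = 0.864) and Eef2 (log2 0.05 ± 0.17 SE, adjusted p = 0.876), did not differ beyond their spread. Etf1, the release factor, was lower (log2 -0.63 ± 0.13 SE, adjusted p = 0.00512). In unstimulated cells 4 of the 44 were higher and 1 was lower with Compound 10, 11.4% of them, while 8.43% of all genes were called. Higher were Eif2ak3 (log2 0.82 ± 0.20 SE, adjusted p = 0.0312), Impact of the eIF2 kinase group (1.47 ± 0.25 SE, adjusted p = 0.00679), Paip2b (0.93 ± 0.135 SE, adjusted p = 0.00339) and the scarce Eef2k (2.0 ± 0.46 SE, adjusted p = 0.0257). Denr was lower (log2 -0.57 ± 0.15 SE, adjusted p = 0.0422).

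Promoter sequences are shown for 3 eIF4 genes that carry the E-box CACGTG, the palindrome bound by Myc and related factors. Eif4g1 and Eif4h were lower with Compound 10 in stimulated cells, and Eif4a1 was not called. All 3 had negative values and groups without overlap, and whether the genes differ from each other was not tested. Each sequence is the RefSeq window of 300 bases (GRCm38.p6), from 250 before the start to 50 after it. It is read 5′ to 3′ on the gene's strand, with E-boxes in capitals. Eif4g1 is at chr16:20672477-20672776 (plus strand), Eif4h at chr5:134639360-134639659 (minus strand) and Eif4a1 at chr11:69672374-69672673 (minus strand).
Eif4g1: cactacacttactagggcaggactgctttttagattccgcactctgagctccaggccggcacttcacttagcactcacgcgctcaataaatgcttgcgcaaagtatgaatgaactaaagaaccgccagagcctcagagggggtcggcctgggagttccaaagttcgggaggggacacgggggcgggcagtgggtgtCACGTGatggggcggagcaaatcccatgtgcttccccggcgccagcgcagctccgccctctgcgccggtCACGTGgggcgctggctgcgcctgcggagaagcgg
Eif4h: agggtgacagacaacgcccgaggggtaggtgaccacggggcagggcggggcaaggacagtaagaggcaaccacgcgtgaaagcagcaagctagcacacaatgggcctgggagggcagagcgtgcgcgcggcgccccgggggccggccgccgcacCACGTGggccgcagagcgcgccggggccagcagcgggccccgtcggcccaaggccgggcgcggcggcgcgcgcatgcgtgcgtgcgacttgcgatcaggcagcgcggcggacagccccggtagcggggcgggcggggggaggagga
Eif4a1: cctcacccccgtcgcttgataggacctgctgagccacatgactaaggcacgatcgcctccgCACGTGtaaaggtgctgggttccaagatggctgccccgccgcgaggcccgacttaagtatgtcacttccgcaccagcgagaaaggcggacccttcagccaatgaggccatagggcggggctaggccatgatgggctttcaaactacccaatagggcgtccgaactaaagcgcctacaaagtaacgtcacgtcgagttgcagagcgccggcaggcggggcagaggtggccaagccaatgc
The first E-box of Eif4g1 begins 54 bases before the start, that of Eif4h 96 and that of Eif4a1 189 bases before it.

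A RefSeq window was at hand for 39 members. Of these, 8 (20.5%) held CACGTG, and of all 27025 windows 7.24% did. The motif was in 3 of the 20 windows of genes that were lower with Compound 10 in stimulated cells and in 5 of the 17 of genes not called. The GC box GGGCGG, searched on both strands like the other motifs, was in 76.9% of the members' windows and 35.9% of all, the ETS site CCGGAAGT in 15.4% and 3.99%, the AP-1 site TGANTCA in 10.3% and 7.92%, and the short NFAT core GGAAA in 46.2% and 61.3%. A C followed by at least 4 pyrimidines within 5 bases of the annotated start, on the gene's strand, the mark of mRNAs of the translation machinery, was found in 9 members (23.1%) and 18.5% of all windows, in 6 of the 20 lower and 2 of the 17 uncalled genes. The 27025 windows were those of all genes at hand, with no limit to protein-coding genes or to genes tested here. The members' shares and those of all windows are thus not from like sets, and the part of this in the differences was not tested. A match here is a string of letters, not a site shown to be bound.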

How the data were processed

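RNA from sorted naive CD4 T cells was sequenced in 10 libraries of 4 groups. The deposited files hold estimated counts and TPM per transcript, per the file headers. Cutadapt, kallisto and the mm10 build are named in the submitters' processing notes, without versions. The authors' TPM values were used as deposited for levels between genes, and their estimated counts were added up over each gene's transcripts, then rounded. Of 109617 transcripts 108214 matched GENCODE M21 (mm10), and the rest held 0.507% to 0.671% of a library's counts.

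All genes past edgeR's expression filter (14417 of 45321) were fitted together with edgeR 4.0.16 (TMM factors, quasi-likelihood F test, 1 coefficient per group, R 4.3.3) and adjusted by Benjamini-Hochberg over all of them. The interaction is the stimulation response with Compound 10 minus that under vehicle. SE is an approximate standard error, the absolute log2 fold change divided by the square root of the F statistic. The fit was also run on simulated counts with far fewer changed genes than were called here. That run therefore does not show how well the threshold holds in these data. No 2 libraries of a group agreed within counting noise (chi-square over its degrees of freedom at least 13.7).

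Members and lists were chosen with earlier results of these data known. In each complex, full values are given for the members with the lowest adjusted p, up to 4 for Compound 10 in stimulated cells and up to 2 more for stimulation, and members that went against their complex are named. Alternatives were other scalings, DESeq2 1.42.0, limma 3.58.1 on log2 TPM, filters, transcript classes, blocks and left-out libraries. Same-numbered libraries were checked for shared deviations (correlations from -0.279 to 0.331) and were not treated as pairs. For libraries of the same index run the correlations were -0.014 to 0.464, the highest between the 2 unstimulated libraries of the third run. The run was left out of the main fit and used as a block in an alternative only. Reads shared between genes were gauged by 31-base words. Promoter windows came from RefSeq, and the 12 members with no window were not searched. One further marker list is not reported here.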

Additional observations from a re-analysis of the deposited data

Results flagged for a closer look

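The response to stimulation differed between Compound 10 and vehicle for 5 members, by the interaction term of the edgeR fit. The difference, response with Compound 10 minus response under vehicle on the log2 scale, was -1.57 for Eif1a, -1.36 for Eif1ad, -1.0 for Eif3c, -0.92 for Eif4e and 1.01 for Eif2d. Eif1a kept its call in all 21 alternatives that could be fitted. Eif1ad lost it in 2, without stimulated vehicle replicate 1 (adjusted p = 0.057) or 2 (adjusted p = 0.0545). Eif3c lost it in 5, Eif4e in 9 and Eif2d in 13, for Eif2d also on protein-coding transcripts alone. The cause was not tested.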

How the results depend on the processing

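For Compound 10 in stimulated cells, 12 of the 24 calls held in all 22 alternatives (Eif1a, Eif1ad, Eif1b, Eif2b5, Eif3c, Eif3d, Eif3l, Eif4a3, Eif4e, Eif4enif1, Eif4h and Eif6). Leaving out 1 library gave 14 to 26 calls, 14 without stimulated vehicle replicate 2 and 17 without replicate 1, and the other alternatives 22 to 30. In unstimulated cells there were 0 to 4 calls with 1 library left out, 0 with only the groups compared, 1 and 0 with limma on log2(TPM + 1) and log2(TPM + 0.1), 10 with the index run as a block and 0 without the third run. Stimulation gave 20 to 32 calls under vehicle and 12 to 22 with Compound 10 with 1 library left out, and 19 under vehicle with either limma fit. The interaction gave 1 to 10 with 1 library left out, 10 with DESeq2, 2 with either limma fit, 11 with the label number as a replicate block, 17 with the index run as a block and 13 without the third run, and could not be fitted with only the groups compared. The replicate block gave 25, 4, 33 and 25 calls for Compound 10 under stimulation, Compound 10 at rest, stimulation under vehicle and stimulation with Compound 10, but label numbers do not pair the libraries. On library totals and on TPM, the log2 ratio of summed levels for Compound 10 in stimulated cells was -0.65 for eIF2 (library totals), -0.62 and -0.63 for eIF2B and -0.38 and -0.28 for eIF3. In unstimulated cells it was -0.42 for eIF2B (TPM) and -0.17 and -0.15 for eIF3. For stimulation under vehicle it was 0.23 and 0.25 for eIF2, -1.24 and -1.29 for eIF2B, 0.42 and 0.79 for the eIF4F core and, reversed, -0.06 and -0.14 for eIF3. With Compound 10 it was -1.51 and -1.49 for eIF2B, 0.23 and 0.47 for the eIF4F core and, reversed, -0.33 and -0.32 for eIF2 and -0.27 and -0.27 for eIF3. Called members that turned negative for stimulation under vehicle on library totals and, after it, in the limma fits were Eif1ad (-0.28 in all), Eif1b (-0.03 in all), Eif2s3x (-0.01, -0.02), Eif3e (-0.27, -0.27 and -0.28), Eif3f (-0.23, -0.08), Eif3g (-0.21, -0.20), Eif3h (-0.19 in all), Eif3i (-0.06, -0.07), Eif3m (-0.21, -0.19), Eif4a3 (-0.21, -0.19), Eif4h (-0.21, -0.18) and, on totals alone, Eif4g1 (-0.08). With Compound 10 they were Eif3a (-0.11 in all), Eif3h (-0.12, -0.10), Eif3i (-0.07, -0.10) and, on totals alone, Eif4e (-0.04). Under vehicle the median of all genes was -0.83 on library totals and -0.49 and -0.70 in the limma fits, which also change the unit and method; the cause of the reversals was not tested. At 1.77 CPM or less, a difference in Eif4ebp3 was not detectable at this depth.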
